A study of Mus musculus with 35 samples.

Results

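Neuroectoderm (NE) cells without TET3 were compared with NE cells that make a catalytically inactive TET3, all of them carrying an empty vector. The comparison rests on 4 of the 26 RNA-seq samples of the series, which has 35 samples in all: 2 Tet3-/- and 2 Tet3m/m samples of the experiment in which Dnmt1 was overexpressed. A gene entered when its mean deposited value over the 12 samples of that experiment was at least 10, which kept 18055 of 18091 genes, and values were compared as log2(normalized count + 1). The comparison sets a loss of the protein beside a mutation of its catalytic site. Tet3 RNA was also lower in Tet3m/m than in Tet3+/+, as given below, and the study states that the mutant protein may be reduced too. Loss of activity and a lower amount of TET3 in Tet3m/m can therefore not be told apart here.

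All cells were male V6.5 mouse ESCs (mixed 129/C57BL/6). Tet3m/m cells carry point mutations in the iron-binding site of the TET3 catalytic domain, in exon 9, and Tet3-/- cells lack exon 4. Both genotypes were made by CRISPR/Cas9 targeting of wild-type ESCs, and the study made 3 independent clones of each. ESCs kept on feeder cells were pre-plated to remove the feeders, transfected with pCAG-myc-IRES-blast, which carries no Dnmt1, moved to medium with 1 µM retinoic acid (RA) and no LIF for 72 h, and selected with blasticidin before RNA was extracted on day 3. Tet3+/+ cells with the same vector (2 samples) serve as the reference level, and the same 3 genotypes transfected with myc-Dnmt1 (2 samples each) share the model fit. The labels do not say whether the 2 samples of a genotype were separate clones or cultures, so p-values measure only the spread between these samples, and genotype and clone cannot be told apart.

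TET enzymes oxidize 5-methylcytosine, a first step in removing DNA methylation, and TET3 also has functions that do not need this activity. ESCs are held in the naive state by a network of transcription factors that includes Nanog, Esrrb and Klf4, and leave it when LIF is withdrawn. RA pushes them towards neural fates, and the same cultures can also yield extraembryonic endoderm, mesoderm derivatives and contractile cells.

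The 12 samples held between 31155842 and 50845950 reads in the listed genes. Tet3-/- and Tet3m/m samples lay 189 to 192 apart as Euclidean distance over the log2 values of all tested genes, while the 2 samples of a genotype lay 62.6 apart in Tet3-/- and 59.9 in Tet3m/m. The mutants were farther from each other than either was from Tet3+/+, which lay 112 to 116 from Tet3m/m and 134 to 137 from Tet3-/-.

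Differentially expressed genes (DEGs; adjusted p under 0.05 by limma and fold change above 1.5) numbered 7141, or 39.6% of the genes tested. Of these, 3418 were higher in Tet3-/- (18.9% of genes tested) and 3723 were lower (20.6%), so that 47.9% of DEGs were higher (95% Wilson interval 46.7% to 49.0%, counting error only). Among genes with a mean of at least 50 this share was 52.8%, so its side of an even split changed with that filter. The excess of lower genes was greater among large changes: with a fold change above 8, 334 DEGs were higher in Tet3-/- and 732 lower. The values of the 2 groups did not overlap for 7134 DEGs, which is read against 82.1% of all genes tested without overlap. The median difference over all genes tested was -0.01 on the log2 scale, and each gene list below is read against that value and these percentages. Below, rose and fell mean higher and lower in Tet3-/- than in Tet3m/m. They do not say which mutant had moved away from Tet3+/+.

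**Figure D1:**
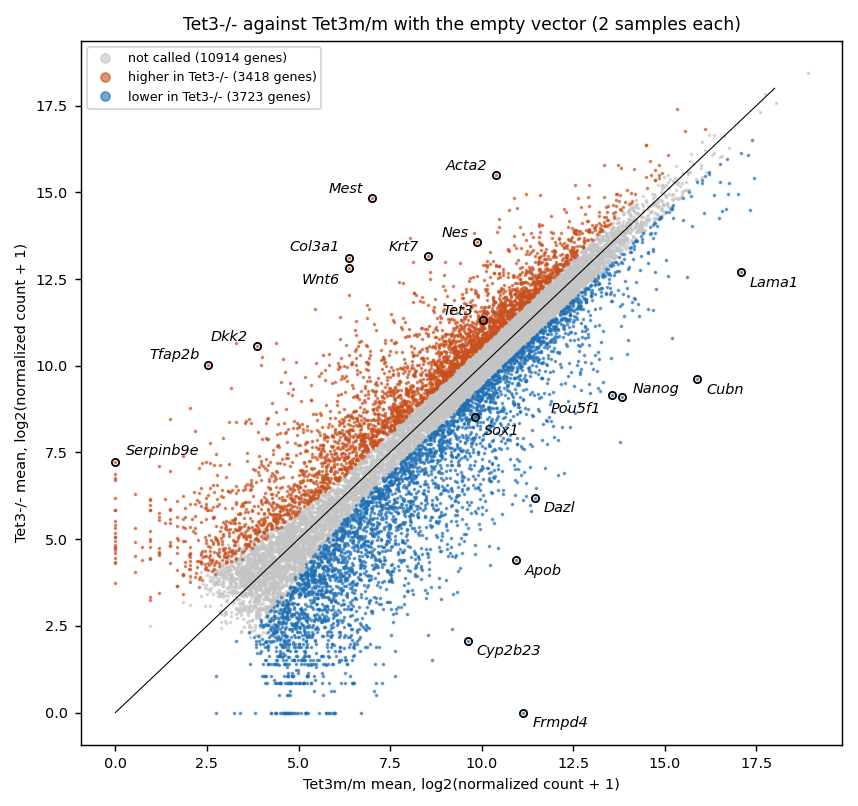
Mean RNA level of each tested gene in Tet3m/m (x axis) and Tet3-/- (y axis), both as log2(normalized count + 1), 2 samples each; the line marks equal levels. The 3418 DEGs higher in Tet3-/- lie above the grey band and the 3723 lower ones below it, with Mest, Col3a1 and Acta2 far above and Frmpd4, Cubn and Lama1 far below.

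Tet3 itself had normalized counts of 2957 and 3075 in Tet3+/+, 1125 and 964 in Tet3m/m and 2520.3 and 2571 in Tet3-/-. The mutant with the point mutations had the lowest level, and the samples of the 2 mutants did not overlap (log2 difference, Tet3-/- minus Tet3m/m, 1.29 ± 0.08, SE; adjusted p = 3.43e-12). The counts cover the whole gene, so reads from exons outside the deleted exon 4 still count and the level in Tet3-/- does not check the deletion. In the day 3 experiment, which had no vector, Tet3 values of the mutants overlapped, at 2666, 2277 and 1945 in Tet3m/m against 1796 and 2329 in Tet3-/-.

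Among the 21 genes of DNA methylation and demethylation, 7 were higher in Tet3-/- and 4 lower, with a median difference of 0.18 (0.11 without Tet3-/- replicate 1). Tet1 had values of 5799.8 and 5885 in Tet3m/m and 1594 and 1860.0 in Tet3-/-. Its difference was -1.76 ± 0.09, and that of Tet2, a further dioxygenase of the family, was -1.45 ± 0.09. Dnmt3l, a cofactor of the de novo methyltransferases, showed the largest fall of the list (7749 and 7962 in Tet3m/m, 1406 and 1679 in Tet3-/-, -2.35 ± 0.08). Dnmt1, the maintenance methyltransferase, had 11934 and 11285 in Tet3m/m and 17356 and 17554 in Tet3-/-. With a difference of 0.59 ± 0.07 it stood just past the fold threshold, and it lost the call without Tet3m/m replicate 2 (0.55) or without Tet3-/- replicate 2 (0.58). Gadd45b and Gadd45g, stress-response genes linked to demethylation, rose by 1.24 and 1.92. The de novo enzyme Dnmt3b fell by 0.88 on the log2 scale, while Dnmt3a (-0.15) and Uhrf1 (-0.03) were not DEGs.

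The largest rises among genes with a mean of at least 50 were led by Mest, an imprinted gene of chromosome 6, with 135 and 121 in Tet3m/m against 29317 and 28908 in Tet3-/- (7.82 ± 0.06, adjusted p = 1.8e-27). Tet3+/+ cells had 29757 and 28097, at the level of Tet3-/-, so the low group was Tet3m/m. Tfap2b, a neural crest transcription factor, followed with 1.83 and 7.81 against 942 and 1139 (7.70 ± 0.32). The chemokine genes Cxcl15 (3.66 and 0 against 380.0 and 330.1) and Ppbp (3.66 and 2.60 against 497 and 385) had at most a few reads in Tet3m/m. Dkk2, a Wnt antagonist, Wnt6 and Col3a1 were also among the largest, with differences of 7.14, 6.48 and 6.75. Serpinb9e, of the granzyme-inhibitor serpin family, had no reads in Tet3m/m and values of 162 and 133 in Tet3-/-, at least 88.9-fold higher when 3 reads over the group are taken as the floor. For Sprr1a, a cornified envelope protein, which also had no reads in Tet3m/m, the bound was at least 64.7-fold higher (114 and 102 in Tet3-/-).

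The largest falls began with Frmpd4, a scaffold protein of synapses, at 2320.4 and 2193 in Tet3m/m and no read in either Tet3-/- sample, at least 1609-fold lower. Tet3+/+ had 3.95 and 0, so the level was high in Tet3m/m and near 0 in the other genotypes. Cyp2b23, a cytochrome P450, had 776 and 796 against 0 and 6.35 (-8.18 ± 0.50), and Penk, which encodes the enkephalin precursor, had 550.2 and 619 against 6.50 and 2.12 (-6.92 ± 0.33). Apob, the main protein of lipoprotein particles, fell from 1836 and 2092 to 14.6 and 25.4 (-6.59 ± 0.30). The RNA 6330410L21Rik had 377 and 415 against 1.62 and 2.12, and Slc5a11, a sodium-coupled inositol transporter, had 225 and 171 against 4.87 and 0. Gm40663 had 99.6 and 105 against no reads (at least 73.1-fold lower). The 3 remaining genes had 1 or 2 reads in Tet3-/-: the Tet3m/m to Tet3-/- ratio was 186 for Tspo2 (counting interval 58.2 to 1736), 189 for the potassium channel gene Kcnj3 (45.5 to 1358) and 249 for Gm16211 (50.6 to 11145). These intervals cover counting error only.

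**Figure D2:**
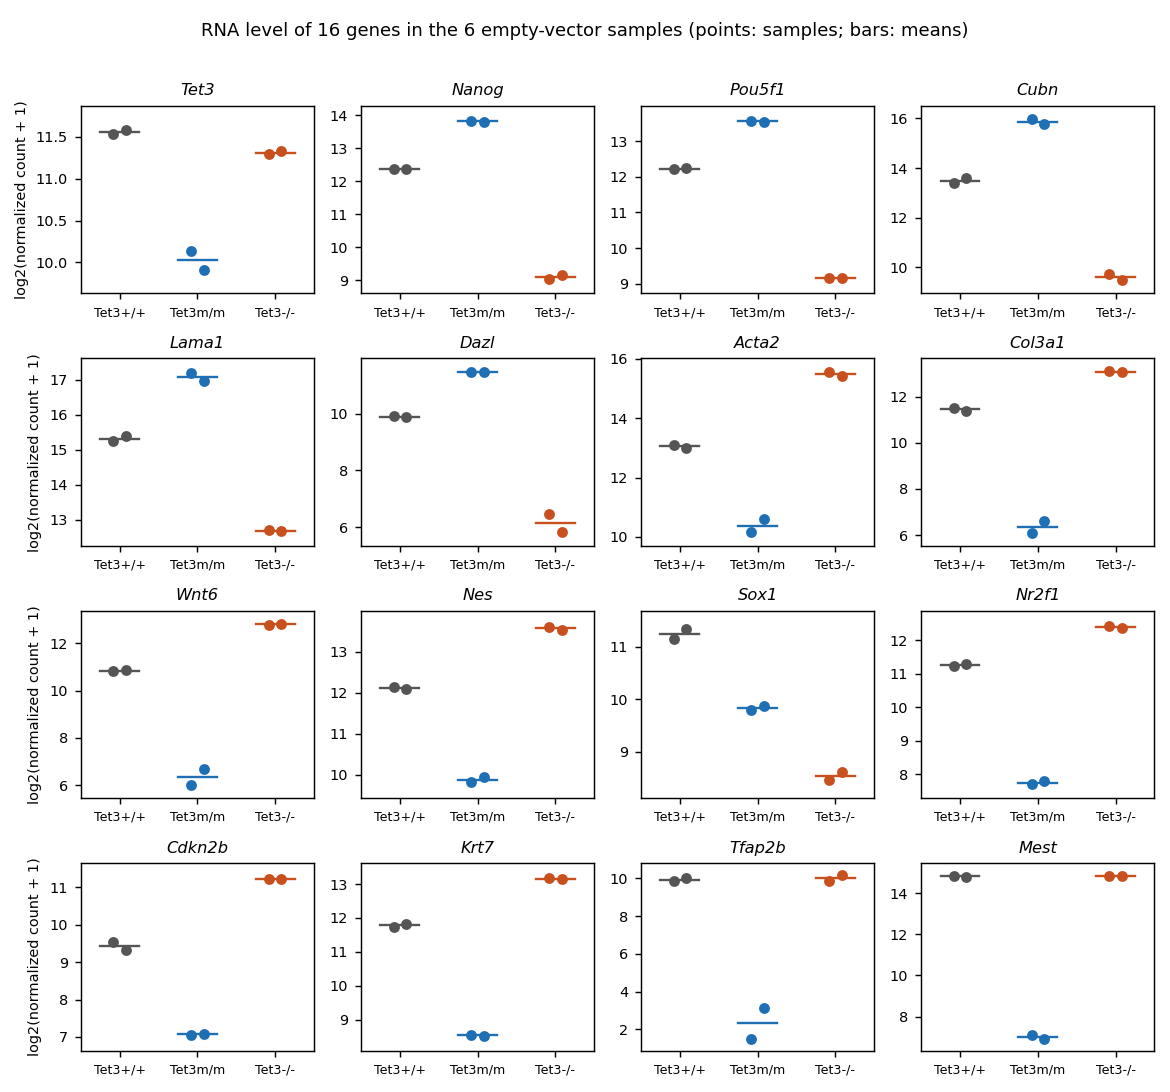
RNA level, log2(normalized count + 1), of 16 genes in the 6 empty-vector samples, a panel per gene with its own y scale; points are samples and bars are means. Tet3m/m and Tet3-/- points are apart in every panel, with Tet3+/+ between them for Nanog, Cubn and Acta2, level with Tet3-/- for Mest and Tfap2b, and above both for Sox1 and Tet3.

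Naive pluripotency factors were lower in Tet3-/- in 15 of 16 cases, with a median difference of -3.75, and 1 was higher. Nanog, a central factor of the network, had 14643 and 14297 in Tet3m/m, 526 and 567 in Tet3-/- and 5286 and 5275 in Tet3+/+. The groups were far apart, with Tet3m/m 26.5-fold above Tet3-/- (-4.72 ± 0.05, adjusted p = 1.61e-24). Esrrb, a nuclear receptor that sustains self-renewal, had 9616 and 9517 against 581 and 660.2 (-3.95 ± 0.06). Among the other factors, Tcl1 (-5.29), Nr0b1 (-5.01), Fgf4 (-4.85), Dppa5a (-4.39) and Prdm14 (-4.39) fell furthest, and Tbx3 (-2.04), Klf5 (-2.02) and Dppa3 (-1.72) fell least. Socs3, a feedback inhibitor of the LIF and STAT3 pathway, was the member that rose (0.64), and it fell below the fold threshold (0.51) without Tet3-/- replicate 1.

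Core and primed pluripotency genes followed, with 11 of 14 lower, 1 higher and a median of -2.42. Pou5f1, which encodes OCT4, had 12155 and 11920.3 in Tet3m/m and 567 and 577 in Tet3-/- (-4.39 ± 0.05). Otx2, a factor of the primed state and of anterior neural tissue, had 487 and 464 against 13 and 4.23 (-5.80 ± 0.45). The Nodal co-receptor gene Tdgf1 (-4.03), Utf1 (-3.81) and Dppa2 (-3.31) fell as well. The 7 embryonic stem cell markers summed to 62692 and 61267 in Tet3m/m, 20882 and 20745 in Tet3+/+ and 4200.3 and 4336 in Tet3-/-, and all 7 were lower in Tet3-/-. These are bulk samples, in which fewer cells of a type and less RNA per cell cannot be told apart.

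Germline genes whose promoters are normally held silent by DNA methylation were also lower in Tet3-/-: 21 of 23 fell, 1 rose and the median was -2.91. Dazl, an RNA-binding protein of germ cells, had 2795 and 2804 in Tet3m/m, 963 and 935 in Tet3+/+ and 87.7 and 56.1 in Tet3-/- (-5.30 ± 0.16). The synaptonemal complex genes Sycp3 (244 and 198 against 11.4 and 3.17) and Sycp2 (228 and 239.6 against 4.87 and 13.8) were lower throughout in Tet3-/-. Dpep3 (-4.78), Taf7l (-3.92) and Rpl10l (-3.53) fell too. The drop of this group was joined by that of Dnmt3l, itself a germ cell and early embryo gene, given above.

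Visceral endoderm genes, which serve uptake and secretion in the yolk sac, were lower in Tet3-/- in 20 of 24 cases, with a median of -2.50. None was higher by limma at an adjusted or an unadjusted p under 0.05 (0 of 24), nor by edgeR or DESeq2. Cubn, the endocytic receptor cubilin, had 64569 and 55679 in Tet3m/m, 10788 and 12257 in Tet3+/+ and 847 and 709.9 in Tet3-/-. Tet3m/m was 77.2-fold above Tet3-/- (-6.27 ± 0.20, adjusted p = 8.57e-17). Amn, its partner amnionless, had 1258 and 1104 against 26 and 27.5 (-5.41 ± 0.18), and Hnf4a, a transcription factor of this epithelium, had 432 and 479 against 6.50 and 21.2 (-5.15 ± 0.36). Apoa1 (-6.24) and the SOX factor Sox7 (-4.95) belonged to the same fall. The signalling antagonist Cer1 had 53 and 53.4 in Tet3m/m and no reads in Tet3-/-, at least 37.9-fold lower. Gata4, an endoderm and heart factor, had 10492 and 9941 against 771 and 717 (-3.78 ± 0.08), while Gata6, with related functions, was not a DEG (3276 and 3343 against 2918 and 2533, -0.28 ± 0.07). The 8 visceral endoderm markers summed to 72327 and 63402 in Tet3m/m and 4083 and 3953 in Tet3-/-, and none was at 0 in any genotype.

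Of the 16 parietal endoderm and basement membrane genes, 12 were lower in Tet3-/- and 1 higher (median -1.67). Lama1, the laminin chain of the embryonic basement membrane, had 148511 and 128789 in Tet3m/m and 6645 and 6551 in Tet3-/- (-4.39 ± 0.09). Srgn, the proteoglycan serglycin, had 4875 and 4769 against 143 and 93.1 (-5.37 ± 0.20). The type IV collagen genes Col4a1 (-2.83) and Col4a2 (-2.23) and the collagen prolyl hydroxylase gene P4ha2 (-2.57) fell in the same direction.

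Primitive streak and early mesoderm factors were split, with 13 of 25 lower and 7 higher in Tet3-/- (median -1.14). The Nodal inhibitor Lefty1 had 4354 and 4274 against 116 and 113 (-5.22 ± 0.14), and Lefty2 (-5.01), Tcf15 (-4.69) and Eomes (-4.29) fell with it. Wnt3a, a ligand of the streak, rose by 3.66. Hand1, a factor of lateral mesoderm and heart, had 142 and 142 against 322 and 211 (0.87 ± 0.15), and its difference was 0.57, below the fold threshold, without Tet3-/- replicate 1. Of 6 mesoderm markers, 4 had values, with 1 higher and 1 lower in Tet3-/- as DEGs. They summed to 255 and 294 in Tet3m/m, 438 and 329 in Tet3-/- and 821 and 776 in Tet3+/+. The sum was thus higher in Tet3-/- than in Tet3m/m, opposite to the list median.

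Vascular genes were mostly lower (18 of 25, with 5 higher and a median of -1.28). Pecam1, an adhesion molecule of endothelium that ESCs also carry, had 1715 and 1802 in Tet3m/m against 151 and 167 in Tet3-/- (-3.46 ± 0.09), and the endothelial receptor genes Robo4 (-3.87) and Tie1 (-3.12) also fell. The members that rose included Gata2 (3.00), Cav2 (3.52) and the adhesion molecule gene Mcam (1.54), of which Gata2 is also in the trophoblast list.

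Glycolysis and hypoxia genes were lower in Tet3-/- in 15 of 22 cases and higher in 2 (median -1.32). Egln3, an oxygen-sensing prolyl hydroxylase that is itself hypoxia-induced, had 4205 and 4531 against 212 and 248 (-4.25 ± 0.10). The phosphofructokinase genes Pfkp (-3.38) and Pfkl (-1.97), the glucose transporter gene Slc2a3 (-2.02) and the mitophagy gene Bnip3 (-2.22) fell with it.

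Smooth muscle and SRF genes rose as a group in Tet3-/-: 17 of 20 were higher, 1 was lower, and the median difference was 1.98. Acta2, smooth muscle actin, had 1147 and 1539 in Tet3m/m, 8759 and 8250.5 in Tet3+/+ and 47864 and 44240.2 in Tet3-/-. Tet3-/- stood 34.3-fold above Tet3m/m (5.11 ± 0.10, adjusted p = 4.3e-20). Tagln, an actin-binding protein of smooth muscle, had 335 and 427 against 6976 and 6247 (4.12 ± 0.11), and Cnn1, calponin, had 250.4 and 307 against 3999 and 3354 (3.72 ± 0.13). Actg2 (4.79), the myosin light chain gene Myl9 (3.09) and the leiomodin gene Lmod1 (2.93) had similar shifts, and the widely used cytoskeletal genes Flna (1.90), Vcl (1.29) and Myh9 (0.97) smaller ones. Csrp2 was the member that fell (-0.90), and the gene of the transcription factor SRF was not a DEG (3626 and 3661 against 5034 and 4885, 0.44 ± 0.05).

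SRF binds the CArG box, a pair of cytosines, 6 bases that are each A or T, and a pair of guanines, which reads the same way on both strands. RefSeq promoter windows of 300 bases (250 before and 50 after the start, build GRCm38.p6) were found for 15 of the 20 genes. The other genes of the list could not be searched. Among all 32851 windows, 1.63% held a CArG box. Of the 15 genes, 4 held a box, beside 1.67% of all tested genes with a window. The windows of these 4, Cnn2, Myl9, Vcl and Srf, held at least 1, and those of the other genes searched held no box. Those of Myl9 and Cnn2, which differ most between the mutants among these 4 genes, are shown with that of Srf. Capitals mark the boxes.
Myl9 (chr2:156775214-156775513, plus strand): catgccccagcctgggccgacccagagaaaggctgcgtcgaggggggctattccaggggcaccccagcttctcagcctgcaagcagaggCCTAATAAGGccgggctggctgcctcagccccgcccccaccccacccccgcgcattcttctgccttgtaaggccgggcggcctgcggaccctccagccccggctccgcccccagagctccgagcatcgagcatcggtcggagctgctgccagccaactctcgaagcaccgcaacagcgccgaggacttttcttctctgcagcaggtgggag
Cnn2 (chr10:79988350-79988649, plus strand): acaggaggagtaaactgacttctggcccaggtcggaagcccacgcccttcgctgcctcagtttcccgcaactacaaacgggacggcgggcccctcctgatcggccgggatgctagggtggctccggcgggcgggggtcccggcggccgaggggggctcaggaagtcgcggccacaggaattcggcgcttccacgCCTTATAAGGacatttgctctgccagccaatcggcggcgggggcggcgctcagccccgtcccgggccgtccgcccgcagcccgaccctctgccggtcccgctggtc
Srf (chr17:46556113-46556412, minus strand): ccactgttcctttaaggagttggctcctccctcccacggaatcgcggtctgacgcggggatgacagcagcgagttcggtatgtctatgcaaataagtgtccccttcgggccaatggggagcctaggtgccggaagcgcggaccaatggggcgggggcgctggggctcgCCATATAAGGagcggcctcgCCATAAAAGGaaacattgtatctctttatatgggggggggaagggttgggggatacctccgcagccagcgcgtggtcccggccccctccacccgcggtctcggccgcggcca
The box began 161 bases before the start in Myl9 and 56 in Cnn2, and the Srf window held 2, at 82 and 62 bases. Cnn2 had 3708 and 3851 in Tet3m/m and 21135 and 20051 in Tet3-/- (2.45 ± 0.06), and Myl9 had 623 and 555 against 5114 and 4923. A match in these letters is a description and does not show that SRF was bound.

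Heart and striated muscle genes rose in 14 of 26 cases and fell in 6 (median 0.98). The sarcomeric actin genes Actc1 (31.1 and 39.1 against 857 and 762) and Acta1 (465 and 544 against 6406 and 6215) rose by 4.50 and 3.65. Myh7, a slow and cardiac myosin heavy chain, rose by 3.89 and the troponin gene Tnnt2 by 3.31. The GATA factors split, with Gata4 lower as given above and Gata5 higher (2.31). Hrc, a calcium-binding protein of the sarcoplasmic reticulum, had 96 and 92.5 in Tet3m/m and 335 and 295 in Tet3-/- (1.73 ± 0.20), and Bin1, a membrane-shaping protein of muscle, had 1429 and 1472 against 4303 and 4126 (1.54 ± 0.07).

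Collagen genes were higher in Tet3-/- in 16 of 33 cases and lower in 7 (median 0.93, or 0.56 without Tet3-/- replicate 1). Col3a1, a fibrillar collagen of loose connective tissue, had 66.7 and 96.4 in Tet3m/m, 2906 and 2696 in Tet3+/+ and 8878 and 8591 in Tet3-/-. Its groups were 107-fold apart (6.75 ± 0.13). Col12a1 (5.64), Col11a1 (4.05) and Col14a1 (4.50) rose with it, as did the type IV pair Col4a5 (4.86) and Col4a6 (4.71) of the X chromosome, opposite in direction to Col4a1 and Col4a2. Cadherin and EMT genes were higher in 10 of 13 cases, among them N-cadherin (Cdh2, 774 and 882 against 4777 and 4716), Vim (2.12) and Twist1 (2.16).

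Markers of feeder fibroblasts moved in the same direction. Of the 10 listed, 8 were higher in Tet3-/- and 1 was lower (median 2.52), and 3 of the 8 used for the sum are collagen genes already described. The 8 markers summed to 3789 and 4080.2 in Tet3m/m, 20644 and 18795 in Tet3+/+ and 38222 and 38124 in Tet3-/-, with none at 0. Dcn, decorin, had 46.6 and 46.9 against 380.0 and 417 and Postn, periostin, 18.3 and 54.7 against 300.4 and 315, while Thy1, the member that fell, had 314 and 361 against 99.1 and 61.4. The part of residual feeder cells in the rise of collagen and smooth muscle genes was not tested.

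Trophoblast genes, which include the simple keratins, were higher in 12 of 17 cases and lower in 2 (median 1.40). Krt7 had 374 and 365 in Tet3m/m and 9259.6 and 9026 in Tet3-/- (4.63 ± 0.07), and Krt19 1258 and 1457 against 14734 and 14827 (3.45 ± 0.07). Gata3, a factor of trophoblast and of surface ectoderm, rose by 3.04 and Gcm1, a labyrinth trophoblast factor, by 3.62. Eomes, listed here and among streak factors, fell.

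**Figure D3:**
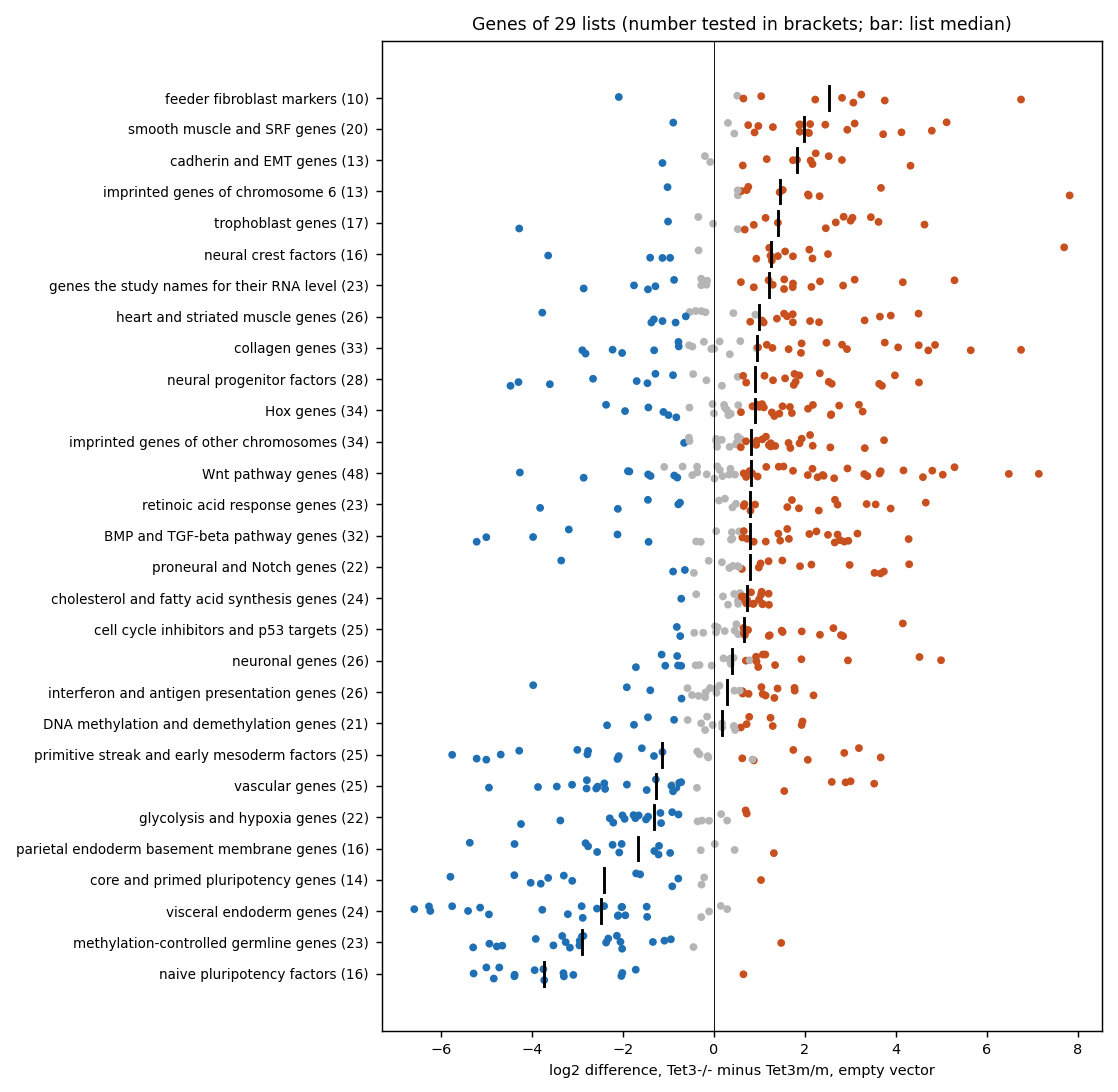
Log2 difference (Tet3-/- minus Tet3m/m, empty vector) of each tested gene of the 29 lists, ordered by list median (bar); orange points are DEGs higher in Tet3-/-, blue points DEGs lower and grey points not called. Medians run from -3.75 for naive pluripotency factors to 2.52 for feeder fibroblast markers, and most lists hold points of both colours.

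Neural progenitor factors were higher in Tet3-/- in 16 of 28 cases and lower in 8, with a median of 0.91. Nes, the intermediate filament nestin, had 897 and 986 in Tet3m/m, 4531 and 4370.5 in Tet3+/+ and 12451 and 11862 in Tet3-/- (3.69 ± 0.06), and Zic1, a dorsal neural factor, had 64 and 70.3 against 1004 and 1141 (3.98 ± 0.14). The POU factor gene Pou3f2 rose by 4.51. Sox1, a marker of committed neural progenitors, went the other way, with 881 and 929 in Tet3m/m, 349 and 390.4 in Tet3-/- and a higher 2254 and 2592 in Tet3+/+ (-1.29 ± 0.11). Olig2 and Nkx6-2, factors of ventral progenitors, fell by 4.48 and 4.30 on the log2 scale. The summed level of the 10 neural progenitor markers differed less between the mutants, at 31607 and 30718 in Tet3m/m and 36744 and 37118 in Tet3-/-, beside 37735 and 39219.6 in Tet3+/+.

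Proneural and Notch genes were higher in 12 of 22 cases and lower in 3 (median 0.80). The proneural factor Neurog1 had 31.1 and 36.5 against 281 and 264 (2.98 ± 0.29). Hes5, a Notch target, had 15.5 and 9.12 against 59.3 and 52.9 (2.14 ± 0.50), and Neurog2, with 11 and 15.6 against 35.7 and 27.5, lost its call without Tet3m/m replicate 1 (adjusted p = 0.137) or Tet3-/- replicate 1 (adjusted p = 0.135). Of the 26 neuronal genes, 11 rose and 6 fell (median 0.40). The 5 neuron markers summed to 3049 and 3183 in Tet3m/m, 2541 and 2251 in Tet3-/- and 1523 and 1561 in Tet3+/+. Their sum was thus lower in Tet3-/- than in Tet3m/m, although 2 of the 5 were higher and 1 lower as DEGs. Dcx, doublecortin of migrating neurons, had 5.48 and 7.81 against 252 and 227 (4.99 ± 0.49) and Dpysl3, an axon growth protein, 2645 and 2605 against 10237 and 9635, while the neurofilament gene Nefl fell from 706 and 596 to 219 and 176.

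Neural crest factors rose in 11 of 16 cases and fell in 4 (median 1.25). Beside Tfap2b, the homeobox genes Msx1 (469.8 and 470.1 against 2667 and 2672) and Msx2 (594 and 609 against 2744 and 2410.1) and the EMT factor Snai2 (1.73) rose, and Foxd3, shared with pluripotent cells, fell (-3.65).

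Hox genes, which set position along the body axis and respond to RA, were higher in 19 of 34 cases and lower in 6 (median 0.89). Hoxc5 had 403 and 443 against 3847 and 3859 (3.19 ± 0.08) and Hoxa4 137 and 92.5 against 1189.5 and 1003 (3.27 ± 0.17), while Hoxd11 fell (-2.38). Of the 34, 10 lie on chromosome 6. RA response genes rose in 14 of 23 cases and fell in 5 (median 0.80). Nr2f1, an orphan nuclear receptor induced by RA, had 210.2 and 220.1 in Tet3m/m and 5576 and 5308 in Tet3-/- (4.65 ± 0.07), and Aldh1a1, an enzyme that makes RA, had 80.4 and 104 against 1228 and 1514 (3.88 ± 0.15). Cyp26b1, which degrades RA, had 568 and 414 against 5919 and 4169.6 (3.35 ± 0.15), and its gene lies 13 tested genes from Tet3 on chromosome 6. The receptor gene Rxrg fell (-3.83).

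Wnt pathway genes were higher in Tet3-/- in 27 of 48 cases and lower in 8 (median 0.81). Among ligands, Wnt6 had 62.1 and 102 in Tet3m/m, 1809.8 and 1884 in Tet3+/+ and 7067 and 7313 in Tet3-/- (6.48 ± 0.14). Wnt10a (7.31 and 2.60 against 180.3 and 251), Wnt10b (25.6 and 18.2 against 805 and 675) and Wnt2b (44.8 and 43 against 1146 and 1021) rose with it. Of the targets, Lgr5, the R-spondin receptor, rose by 4.80, and Axin2, a feedback inhibitor often used as a readout of the pathway, rose from 948 and 1057 to 3291 and 3381 (1.74 ± 0.08). Sfrp4, a secreted antagonist, fell (-2.87), in contrast to Dkk2.

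BMP and TGF-beta pathway genes were higher in 19 of 32 cases and lower in 6 (median 0.80). The 6 that fell were Lefty1, Lefty2, Gdf3 (-3.98), the activin subunit gene Inhbb (-3.20), the ligand gene Nodal (-2.13) and Id4 (-1.44). Bmp5 (7.31 and 5.21 against 128 and 149) rose.

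Cell cycle inhibitors and p53 targets were higher in 14 of 25 cases and lower in 2 (median 0.66). The INK4 inhibitor gene Cdkn2b had 131 and 135 in Tet3m/m and 2394 and 2365 in Tet3-/- (4.15 ± 0.11), its neighbour Cdkn2a had 416 and 419 against 3066 and 2916 (2.84 ± 0.08) and Cdkn1a, the p53 target that encodes p21, had 2149 and 2133 against 10862 and 10644 (2.33 ± 0.06). The G1 cyclin gene Ccnd1, which drives the cycle, rose as well (2.79).

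Imprinted genes, of which a single parental copy is active under the control of DNA methylation, were mostly higher in Tet3-/- than in Tet3m/m. On chromosome 6, 10 of 13 were higher and 1 was lower (median 1.44). Below Mest in this list, Peg10 had 41419.9 and 41182 against 167400.0 and 177981 (2.06 ± 0.04), Calcr 141 and 96.4 against 596 and 576, and Asb4 142 and 128 against 564 and 579.8. Copg2, next to Mest, was 0.75 higher in Tet3-/- than in Tet3m/m. Against Tet3+/+, Peg10 was 0.43 in Tet3-/- and -1.64 in Tet3m/m, Asb4 -0.33 and -2.41 and Copg2 -0.15 and -0.91. Calcr was above Tet3+/+ in both mutants, by 4.11 in Tet3-/- and 1.79 in Tet3m/m. Nap1l5 had 2 reads over the Tet3m/m samples and 50 over the Tet3-/- samples. On other chromosomes, 19 of 34 were higher and 1 was lower (median 0.81). The growth factor gene Igf2 had 3099 and 3110.0 against 29810.4 and 31948 (3.31 ± 0.05), the Notch-like ligand gene Dlk1 1783 and 1658 against 22849.5 and 23034 (3.74 ± 0.06) and Plagl1, a zinc-finger gene, 1720.0 and 1699.5 against 9739.5 and 10388.

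Chromosome 6, which carries Tet3, had the highest median difference of the autosomes, 0.31 over 852 genes, of which 323 were higher and 140 lower in Tet3-/-. The other autosomes and the X chromosome had medians from -0.20 (chromosome 13) to 0.06 (chromosome 8), and the 11 genes tested on the Y chromosome had a median of 0.75, with 5 higher and 4 lower. The shift lay in a run of neighbouring genes that was located in the day 3 samples, by Tet3m/m against Tet3+/+. Within this run of 385 genes, which holds Tet3 and Mest, the median was 0.99, and 244 genes were higher and 29 lower, or 89.4% of the DEGs higher. In the other 467 genes of the chromosome the median was -0.05 and 41.6% of DEGs were higher. Set against Tet3+/+, the run had a median of -0.74 in Tet3m/m and 0.24 in Tet3-/-. Tet3 itself, 10 of the Hox genes (Hoxa4 among them), Cyp26b1, Actg2, Cav2 and 5 of the 13 imprinted genes of chromosome 6 (Mest, Copg2 and Nap1l5 among them) are inside the run, and the part of the regional shift in their differences was not tested. The other 8 imprinted genes, with Peg10, Calcr and Asb4, lie outside it and had a median of 1.48, beside 0.75 for the 5 inside. Chromosome 8 had medians of -0.38 in Tet3-/- and -0.45 in Tet3m/m against Tet3+/+. Chromosomes were taken from GENCODE M21 and, where it lacked a gene name, from RefSeq. Positions along chromosome 6 are not given because M21 is on another build than mm39, which the study names for the alignment.

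**Figure D4:**
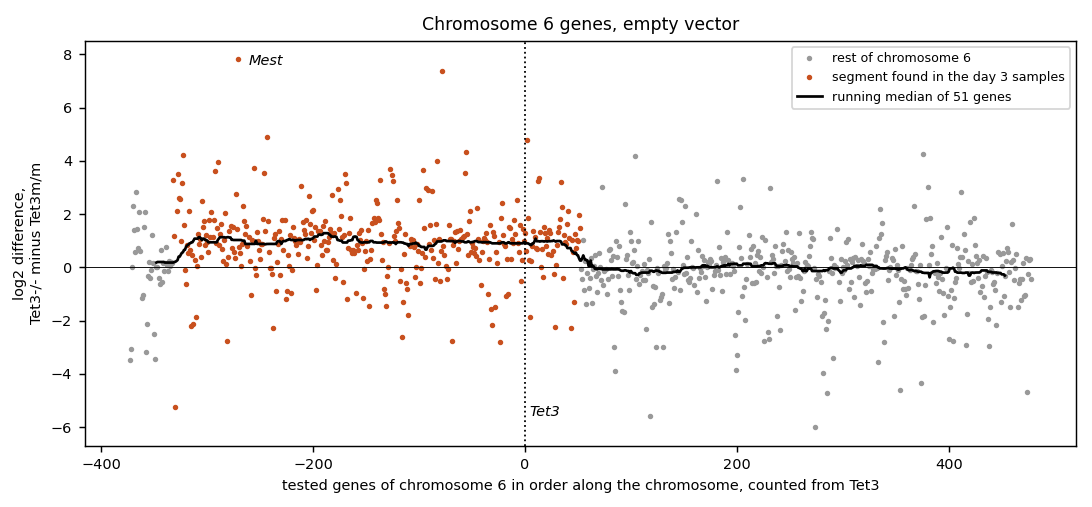
Log2 difference (Tet3-/- minus Tet3m/m, empty vector) of the 852 tested chromosome 6 genes in their order along the chromosome, counted from Tet3 at 0. Orange points are the 385 genes of the run located in the day 3 samples, and the running median of 51 genes (black) is near 1 inside it and near 0 outside.

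Tet3+/+ cells usually had a level between those of the mutants. This held for 5876 DEGs, or 82.3%, beside 56.1% of all genes tested, and the choice of genes by the distance between the mutants itself favours a value in between. Of the DEGs higher in Tet3-/-, 256 had a Tet3+/+ mean above both mutants and 300 below both. Of the DEGs lower in Tet3-/-, 465 had a Tet3+/+ mean above both mutants and 244 below both. Either mutant could be the one called against Tet3+/+. Among DEGs higher in Tet3-/-, 925 were called only in Tet3-/-, 977 only in Tet3m/m, 620 in both in opposite directions and 852 in neither. Among DEGs lower in Tet3-/-, these counts were 1389, 750, 704 and 820. The Tet3+/+ mean was between the mutants for 15 of the 16 naive pluripotency factors, for the 20 visceral endoderm DEGs and for 17 of the 18 smooth muscle and SRF DEGs.

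The same genotypes with the Dnmt1 vector gave 7015 DEGs between Tet3-/- and Tet3m/m (38.9% of genes tested, 19.1% higher and 19.8% lower in Tet3-/-). Dnmt1 had 20244 and 23211 in Tet3m/m with this vector and 33380.5 and 39854 in Tet3-/-. Called with both vectors and in the same direction were 5595 genes, which is 78.4% of the empty-vector DEGs and 79.8% of the Dnmt1-vector DEGs. A direct test of the difference between the vectors called 972 genes (5.38% of genes tested), among them 803 empty-vector DEGs (11.2% of these). Retinoic acid response genes had 12 of 23 members among the calls, and germline genes 10 of 23. Feeder fibroblast markers had 5 of 10, cadherin and EMT genes 5 of 13, neural crest factors 6 of 16 and neural progenitor factors 9 of 28. Smooth muscle and SRF genes had 3 of 20 and neuronal genes 1 of 26. The median of the retinoic acid list was 0.80 with the empty vector (14 higher, 5 lower) and 0.99 with the Dnmt1 vector (13 higher, 3 lower). That of the germline list was -2.91 and -1.94. In the same order, the median was 2.52 and 1.27 for feeder fibroblast markers and 1.82 and 0.63 for cadherin and EMT genes. Single members could differ from their list. For Nr2f1 the difference between Tet3-/- and Tet3m/m was 4.65 with the empty vector and 3.08 with Dnmt1 (difference 1.58 ± 0.10, adjusted p = 1.93e-09), and for Aldh1a1 it was 3.88 and 1.14 (difference 2.74 ± 0.21, adjusted p = 1.09e-08). For Acta2 it was 5.11 and 5.04 (difference 0.07 ± 0.15, adjusted p = 0.809).

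On day 3 without a vector (2 Tet3-/- and 3 Tet3m/m samples, a separately normalized table), 1744 genes were DEGs between the mutants (9.73% of genes tested, 5.41% higher and 4.33% lower in Tet3-/-), and 1152 were called without Tet3m/m replicate 2. Within-genotype distances were 73.1 to 100.3 there, larger than with the empty vector, and the study describes the day 3 samples as independent clones. Of the 6718 empty-vector DEGs tested in both, 20.1% were DEGs of the same direction on day 3, and these 1351 genes were 78.7% of the day 3 DEGs tested in both, with 36 more called in opposite directions. The sign was the same for 83.5% of empty-vector DEGs, called or not on day 3, beside 70.5% of all genes. Mest (6.16), Srgn (-4.25), Cubn (-4.00) and Col3a1 (2.13) were DEGs in the same direction on day 3. Nanog (-1.04, adjusted p = 0.142), Acta2 (1.51, adjusted p = 0.0791) and Pou5f1 (-0.84, adjusted p = 0.321) were not DEGs there, with Nanog at 1493, 2219 and 3760.5 in Tet3m/m and 1787 and 709 in Tet3-/-. Most lists had few day 3 calls. Lower there were 2 of 16 naive pluripotency factors (median -0.75), and 2 of 20 smooth muscle and SRF genes were higher (0.62). Of 23 retinoic acid response genes, 1 was higher and 3 lower (0.05), and of 34 Hox genes 6 and 2 (0.08). The glycolysis and hypoxia median was -0.13. Visceral endoderm genes had 13 of 22 lower (-1.37). Neuronal genes had 14 of 26 members higher on day 3 and 0 lower by limma, edgeR or DESeq2 (0 lower at an unadjusted p under 0.05), and Nefl, which fell with the empty vector, was 1.13 on day 3.

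A further experiment, in which another empty vector was given during differentiation, holds 1 sample per genotype and thus no replicate check. By the study's methods these cells were transfected on day 2 and collected later in differentiation than the cells described above, so vector, timing and collection all differ. Smooth muscle and SRF genes had the opposite sign there: 17 of 20 were lower in Tet3-/- by more than 1.5-fold and 0 higher, beside 17.6% of all genes lower and 16.8% higher by that fold, and the median was -1.36 against 0.01 over all genes. In all, 12 of the 29 lists had a median of the opposite sign there. Glycolysis and hypoxia genes had a median of 0.92 (14 higher and 2 lower past the fold), BMP and TGF-beta genes -0.62 (6 higher, 17 lower) and Wnt pathway genes -0.32 (6 higher, 20 lower). Acta2 had 59464 in Tet3m/m and 10581 in Tet3-/-. Naive pluripotency factors had a median of -0.64 and visceral endoderm genes 0.20. Mest was at 341 against 14967, in the same direction as in the other experiments. Of the 6745 empty-vector DEGs in that table, 61.5% had the same sign there, beside 55.8% of all genes.

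**Figure D5:**
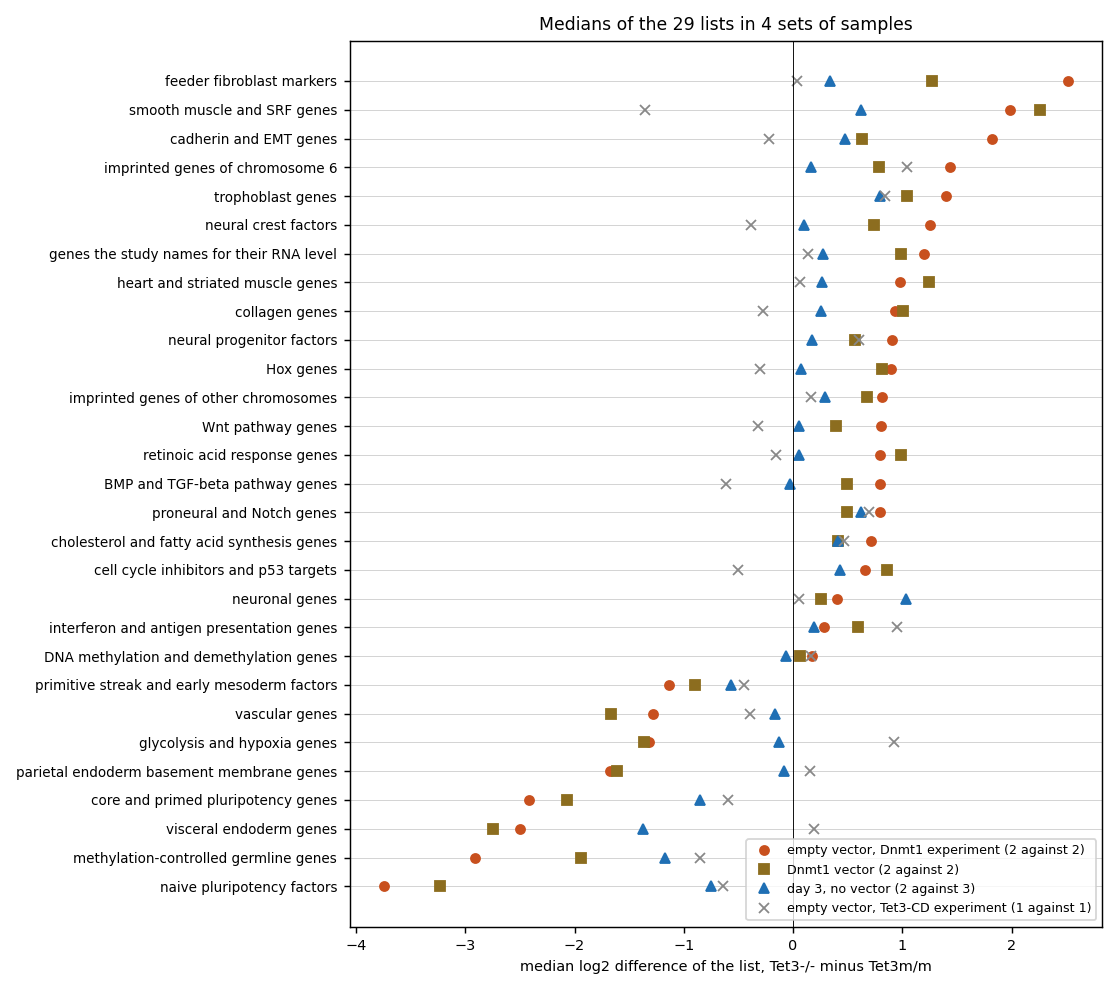
Median log2 difference (Tet3-/- minus Tet3m/m) of each of the 29 lists in 4 sets of samples: empty vector and Dnmt1 vector of the Dnmt1 experiment (2 samples against 2), day 3 without a vector (2 against 3) and the empty vector of the Tet3-CD experiment (1 against 1). The medians with the 2 vectors of the Dnmt1 experiment have the same sign in all 29 lists and lie more than 0.5 apart in 6, the day 3 median is nearer 0 than the empty-vector median in 28 lists (neuronal genes being the exception), and the smooth muscle list is at 1.98 with the empty vector and at -1.36 in the Tet3-CD experiment.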

How the data were processed

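RNA was sequenced from NE cells. The authors trimmed reads with Trim Galore (0.6.7), aligned them to mm39 with STAR (2.7.9a; the submitters' processing notes list mm10), counted them per gene with featureCounts and divided by DESeq2 size factors, so the deposited values are a normalized signal per gene. Each value is a whole multiple of the value of 1 read (100.0% within 0.01), so reads were recovered for count tests. The 2 empty-vector Tet3+/+ columns share 1 header name and carry no replicate number.

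Groups follow the labels. Log2(value + 1) of genes with a mean of at least 10 over 12 samples was fitted with limma 3.58.1 (R 4.3.3; empirical Bayes trend, 6 group means) and adjusted by Benjamini-Hochberg over all genes tested. The thresholds for DEGs were 0.05 for the adjusted p and 1.5 for the fold change. The day 3 table (8 samples) was fitted alone. Alternatives used edgeR 4.0.16, DESeq2 1.42.0 and TMM factors, other pseudocounts and filters, and left-out samples.

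Named genes are Tet3, the genes the study names for their RNA level, the 10 largest rises and 10 largest falls (no overlap, mean at least 50) and up to 6 DEGs for each of 29 lists. Members of lists named beyond that (Klf5, Tbx3, Dppa3, Klf4, Esrrb, Socs3, Lmod1, Flna, Vcl, Myh9, Csrp2, Srf, Vim, Thy1, Uhrf1, Copg2, Calcr, Nap1l5, Nodal, Id4 and others without large differences) were chosen after their values were seen. The comparison and the lists were chosen with earlier results of these data known. The series' methylation, hydroxymethylation and CUT&Tag files were not used here, and some genes that the rule names are not reported here.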

Additional observations from a re-analysis of the deposited data

Results flagged for a closer look

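The difference between Tet3-/- and Tet3m/m was not the same with the empty vector and with the Dnmt1 vector for 972 genes, by limma's test of the difference between the 2 differences. It was larger or less negative with the empty vector for 451 of them and smaller or more negative for 521. Leaving out Tet3-/- replicate 1 of the Dnmt1 vector gave 1274 genes.

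Of the genes named above as targeted, named by the study or largest in change, 8 were among these. Tfap2b had the largest shift, a difference of 7.70 with the empty vector and 2.81 with Dnmt1 (4.89 apart, adjusted p = 1.9e-07), with 1.83 and 7.81 in Tet3m/m under the empty vector and 71.5 and 82.3 under Dnmt1. Col3a1 was 1.49 and Mest 0.95 higher in their difference with the empty vector. Sox1 was 0.87 apart, since its fall was -1.29 with the empty vector and -2.16 with Dnmt1, and Sox5 was 1.33 apart (-0.17 and -1.50). The falls of Cyp2b23, Slc5a11 and Penk were deeper with the empty vector, by -2.88, -2.41 and -1.99.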

How the results depend on the processing

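The count of DEGs between Tet3-/- and Tet3m/m stayed between 4910 (fold change above 2) and 7209 under the alternatives other than the removal of the fold threshold, which gave 11852. It was 7160 with edgeR and 7020 with DESeq2 on the recovered reads, and 6699 to 7209 when 1 sample was left out, where a group left with 1 sample is assumed to vary like the others. The share of DEGs higher in Tet3-/- was 52.8% with a mean of at least 50, so that higher genes became the majority, 46.0% without genes of chromosomes 6 and 8, 49.4% without a fold threshold and 44.3% with a fold change above 2. Leaving out 1 sample gave 47.5% to 48.9%. The vector difference gave 2572 genes without a fold threshold, 514 above 2-fold and 765 to 1274 with 1 sample left out. The day 3 count was 1152 to 2219 with 1 sample left out, lowest without Tet3m/m replicate 2, and 1521 with the replicate block. The causes were not tested.

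Same-numbered samples did not deviate together (correlations -0.05 to 0.03 over 10 pairs of groups), and the replicate number was not used in the main fit. With 2 samples per group, these correlations do not show whether same-numbered samples shared a clone or culture. With it as a replicate block, DEGs numbered 7104, beside 7132 from the same numbered samples without the block, a reference chosen after seeing the data, and the vector difference 893 beside 911.

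Of 184 named genes that were DEGs, 177 kept the call in the 27 alternatives. Calls were lost in some alternatives for Neurog2, Neurog3, Hand1, Dnmt1, Dnmt3b, Nhlh1 and Nlrc5. Of all 472 list members that were DEGs, 40 lost the call when some single sample was left out, Socs3 among them. The list medians moved by over 1.5 times for collagen genes (0.56 against 0.93) and methylation genes (0.11 against 0.18) without Tet3-/- replicate 1, for methylation genes (0.30) without genes of chromosomes 6 and 8 and for proneural and Notch genes (0.53 against 0.80) with a mean of at least 50. That of interferon and antigen presentation genes (0.28) did so too, at 0.12 without genes of chromosomes 6 and 8 and 0.56 with a mean of at least 50. Sox5, not a DEG, ran from -0.36 to 0.0202 with 1 sample left out, changing sign without Tet3m/m replicate 1. Replicates differed by more than sampling noise, with a mean chi-square per gene from 4.16 to 12.1, and 2 samples per group limit what could be shown for genes with few reads. The highest values were those of Tet3-/- (12.1) and Tet3m/m (6.92) with the Dnmt1 vector, and the other groups had 4.16 to 4.69. The vector difference uses these 2 noisiest groups, while the fit shares 1 estimate of the spread across all groups.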

Other observations

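Cholesterol and fatty acid synthesis genes were higher in Tet3-/- than in Tet3m/m in 16 of 24 cases and lower in 1, with a median of 0.72 (lowest -0.72, highest 1.21). Scd2, a fatty acid desaturase, had 47866 and 48283 in Tet3m/m and 109369 and 112488 in Tet3-/- (1.21 ± 0.04, limma adjusted p = 4.03e-16), and the sterol enzyme genes Nsdhl (1.20), Mvd (1.07), Idi1 (1.06) and Lss (1.05) rose with it. With the Dnmt1 vector 6 were higher and 2 lower, and 0 of 24 passed both thresholds for the difference between the vectors (limma, edgeR or DESeq2), although 22 had an unadjusted p under 0.05 by limma.

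Interferon and antigen presentation genes were higher in 11 of 26 cases and lower in 4 (median 0.28, or 0.12 without genes of chromosomes 6 and 8 and 0.56 with a mean of at least 50). The peptide-loading genes Tap1 (574 and 625 against 1980.4 and 2105) and Tapbp (1813 and 1862 against 6495 and 6072) rose, while Psmb8, a subunit of the immunoproteasome, fell (283 and 279 against 69 and 78.3). Ifitm1, an interferon-induced membrane protein that pluripotent cells and early germ cells also make, fell from 4754 and 4653 to 309 and 287 (-3.98 ± 0.08).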
